A study of Rattus norvegicus with 29 samples.

Results

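The imprinted miR-379 to miR-410 cluster is a row of miRNA genes on rat chromosome 6, placed there by the RefSeq annotation of GRCr8. Members were chosen by name alone: a row of the count table belongs when its miR number is among 32 numbers of the cluster, with any letter, copy or arm. The table held 31 of the 32 numbers and 66 of its 754 miRNA rows met the rule. All 66 passed the filter on low counts, as did 751 of the 754 rows.

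Plasma was drawn from the tail vein of 29 adult male Sprague-Dawley rats under isoflurane, and small RNA from each rat was sequenced as 1 library. In 19 rats blood was taken 48 h after lateral fluid-percussion injury, an experimental traumatic brain injury (TBI), and in 10 rats 48 h after a sham operation. Video-EEG months later sorted the injured rats into 9 with epilepsy (TBIE) and 10 without (TBIN). UEF contributed 4 sham, 4 TBIN and 4 TBIE rats, Monash 3, 3 and 2, and UCLA 3, 3 and 3. Site stands for animals, surgery and handling at once, and these cannot be told apart.

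Total miRNA counts were 1162307 to 5223469 per rat, with a median of 2713557. The members together took a median of 0.263% of them. The share was lowest in UEF sham 3 with 0.0584% of counts (95% exact interval 0.0563% to 0.0605%) and highest in UEF TBIE 4 with 0.474% of counts (95% exact interval 0.464% to 0.485%). These intervals cover counting error only. Levels are given in CPM, counts as parts of a library size scaled by TMM (the trimmed mean of M-values), which sets most miRNAs to a common level across rats. UEF sham 3 stands apart on this scale: its scaling factor was 0.333, against 0.644 to 1.76 in the other rats. miR-122, the liver miRNA, summed to 1654030 CPM there, a value that can pass the library's own total because of that factor, against 5982 to 452908 CPM in the others. Values without this rat are given beside the calls that it decides.

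A further 9 libraries stand apart from the other 20, in a way that crosses site and outcome. They are the 3 sham and 3 TBIN rats of Monash and the 3 TBIE rats of UCLA, which fill columns 15 to 23 of the deposited table. miR-667-3p was 11.1 to 30.9 with a median of 22.0 CPM in the 9 and 68.9 to 209.9 with a median of 104 CPM in the 20, and miR-1193-3p 7.71 to 24.4 with a median of 13.2 CPM in the 9 and 38.5 to 155 with a median of 77.4 CPM in the 20. These 2 of 66 members were lower in the 9 without overlap, as were 21 of 751 miRNAs (2.80%), and none was higher without overlap. By Spearman correlation over 751 miRNAs, the best match of each of the 29 rats was on its own side of this split, and the best matches of the 3 UCLA TBIE rats were Monash rats. The labels name no batch, the split was seen in the data, and its cause was not tested. Because 6 of the 8 Monash rats are among the 9, differences of Monash from the other sites cannot be told apart from it in most rats. Within Monash and within UCLA it parts the TBIE rats from the rest, so TBI against sham at these sites crosses it too. Values with the split in the model are given beside most results of the members, but not for the lists of miRNAs outside the cluster given further on. On those lists, miR-137-3p of the brain and miR-337-3p and miR-370-5p of the same imprinted domain are among the 21 miRNAs lower without overlap.

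Whether the site labels of the Monash and UCLA TBIE rats are exchanged was not tested either. If they were, every site comparison and the values of TBI against sham at Monash and UCLA would change. The study starts animal numbers with a digit for each site, and the numbers in the column names of these rats follow the labels. The column names hold the site as well, so they are not a separate check. The study counts 8 Monash and 9 UCLA samples, as the labels do. Levels of miR-122 and best matches are given here by the labels, without a test. miR-122 summed to 21650, 11110 and 16148 CPM in the UCLA TBIE rats, against 5982 to 20539 CPM in the other 6 UCLA rats. In the Monash TBIE rats it was 78907 and 65489 CPM, within the 17814 to 128603 CPM of the other 6 Monash rats and above all UCLA rats. The best matches of the 2 Monash TBIE rats were UEF rats. All results below use the labels as given.

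**Figure D1:**
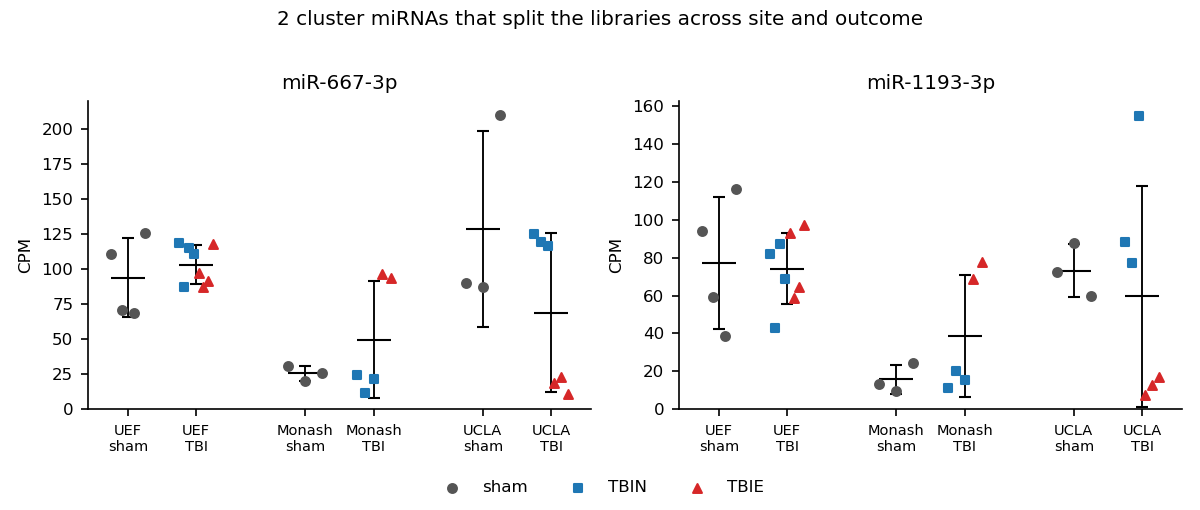
Level in CPM of miR-667-3p and miR-1193-3p in each rat, by site and group, with bars for the mean and SD. The Monash sham and TBIN rats and the UCLA TBIE rats lie below all other rats. The Monash TBIE rats lie in the range of the UEF rats and in that of the UCLA sham and TBIN rats.

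As background, the cluster lies in the Dlk1-Dio3 domain, where the miRNAs are expressed from the maternal chromosome alone. Its genes are thought to be transcribed as long precursors from which many hairpins are cut, and each hairpin can give a mature miRNA from its 5p and its 3p arm. In adult mammals the cluster is expressed mainly in the brain, where miR-134, which lies in the same row but outside the numbers of the rule, has been linked to the dendrites of neurons.

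RefSeq GRCr8 gave a mature sequence for 65 of the 66 members. Sequences are written 5′ to 3′ in lower case, and capitals mark the seed, bases 2 to 8, the stretch by which a miRNA mainly pairs with its targets. The first set holds the members on which the comparison of TBI with sham turns, with the other arm of the miR-323 hairpin and the miRNA that lies opposite miR-409b.
miR-323-3p: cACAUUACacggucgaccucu
miR-323-5p: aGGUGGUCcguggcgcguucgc
miR-382-5p: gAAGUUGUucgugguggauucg
miR-409b: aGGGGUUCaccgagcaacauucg
miR-409a-3p: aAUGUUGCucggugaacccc

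The second set holds both arms of miR-379, the first hairpin of the row, and a pair with a common seed, AUACAAG. All 4 differed between sites in the fit without the split of 9 libraries.
miR-379-3p: cUAUGUAAcaugguccacuaac
miR-379-5p: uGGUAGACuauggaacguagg
miR-381-3p: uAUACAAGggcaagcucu
miR-539-3p: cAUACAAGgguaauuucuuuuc

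The third set shows how close some members are. miR-299a and miR-299b come from opposite strands of the same place, and their arms share the seeds AUGUGGG and GGUUUAC. Short reads of such a pair may be assigned to either name, so their counts are uncertain.
miR-299a-3p: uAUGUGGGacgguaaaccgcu
miR-299b-3p: uAUGUGGGacgguaaac
miR-299a-5p: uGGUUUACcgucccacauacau
miR-299b-5p: cGGUUUACcgucccacauac

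The fourth set is the only seed held by 3 members, GGUUGUC, from 3 separate hairpins.
miR-410-5p: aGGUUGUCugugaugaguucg
miR-494-5p: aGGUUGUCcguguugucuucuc
miR-496-5p: aGGUUGUCcaugguguguuc

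Another seed, UGGAUAU, is common to miR-376b-5p and miR-376c-5p. In all, 11 of the 65 members with a sequence shared 1 of 5 seeds with another member. Counting every row of the table, 16 of the 65 members (24.6%) shared a seed with some other row, against 167 of all 674 rows with a sequence (24.8%), so shared seeds were as frequent as in the whole table. The mature members had a median length of 22 bases, as did all rows with a sequence, and a median GC content of 47.1% against 47.8%. The 3p arms of miR-376a, miR-376b and miR-376c, and those of miR-300 and miR-381, are also near copies whose counts may be exchanged. Of 34 member genes in the row, 32 lie on the plus strand. miR-299b and miR-409b lie on the minus strand, opposite miR-299a and miR-409a. The row opens with miR-379 and miR-411 and ends with miR-369 and miR-410.

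Most members were scarce in plasma. The median rank of the members by mean level was 528.5 among the 751 miRNAs tested. A mean of 10 CPM or more was reached by 52 of the 66 members and a mean of 100 CPM or more by 4. At least 10 counts in every rat were found for 44 members, against 588 of all 754 miRNAs.

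The 5 most abundant members were miR-379-3p at 499.8 ± 437 CPM (SD, n = 29), miR-411-5p at 287 ± 160.0 CPM (SD, n = 29), miR-323-5p at 185 ± 69.8 CPM (SD, n = 29), miR-382-5p at 101 ± 51.4 CPM (SD, n = 29) and miR-369-3p at 86.9 ± 55.0 CPM (SD, n = 29). The order among the first 4 rests on means whose SDs overlap. Below them 1.47 CPM was the lowest mean, that of miR-299a-3p. The 5 least abundant were miR-299a-3p, with 114 counts over all rats and 0 in 20 of them, miR-380-5p (0 in 11 rats), miR-299b-5p (0 in 14), miR-376b-5p (0 in 7) and miR-496-5p (0 in 5). In all, 11 members had 0 counts in some rat. A count of 0 allows up to 3 counts, so these members were not detectable at this depth in those rats and are not shown to be absent.

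Both arms were counted for 31 hairpins. The 5p arm was the higher on average in 12 and the 3p arm in 19. In 13 hairpins the same arm led in every rat, and in 13 the mean of 1 arm was over 4 times that of the other. miR-411-5p stood 12.0-fold above miR-411-3p and miR-543-5p 12.6-fold above miR-543-3p, while miR-379-3p stood 8.58-fold above miR-379-5p, each in 29 of 29 rats. These folds compare CPM between mature miRNAs of similar length within the same libraries, where ligation and amplification may favour some sequences.

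The summed level of the 66 members was 2703, 1683, 1751 and 2566 CPM in the UEF sham rats and 2034 to 2725 with a median of 2506 CPM in the 8 UEF TBI rats. At Monash it was 2142, 2605 and 2864 CPM in the sham rats and 4369, 2859, 3133, 2768 and 3264 CPM in the TBI rats. At UCLA it was 2313, 2177 and 2338 CPM in the sham rats and 2036 to 2636 with a median of 2332 CPM in the 6 TBI rats. Sham and TBI rats overlapped at every site. Monash TBIN 1 was the highest rat, and miR-379-3p alone made up 2215 of its 4369 CPM. Without miR-379-3p the summed level was 1447 to 2580 with a median of 1889 CPM in the 10 sham rats and 1496 to 2631 with a median of 2047 CPM in the 19 TBI rats.

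**Figure D2:**
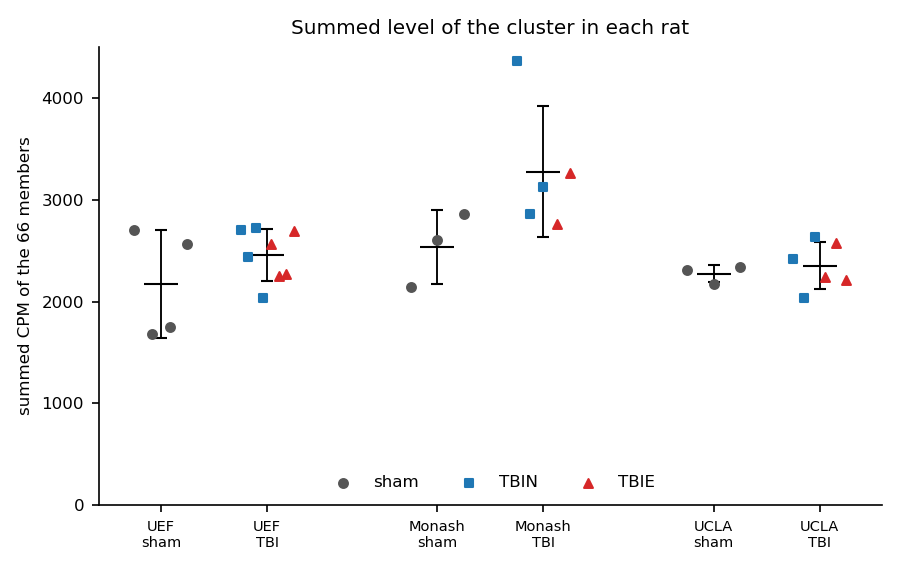
Summed level of the 66 members in CPM in each rat, by site and by group (sham, TBIN, TBIE), 1 point per rat. Monash TBIN 1 lies highest at 4369 CPM and UEF sham 2 lowest at 1683 CPM, and sham and TBI rats overlap at each site.

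Members varied little in common from rat to rat. Over 29 rats the median Spearman correlation was 0.11 among 2145 member pairs, −0.00 among all 281625 pairs of tested miRNAs, and 0.13 between the 5p and 3p arms of 31 hairpins. Points share the library and its scaling, and counting error in scarce members lowers such values. The members most like the summed level were miR-299a-5p (Spearman 0.56), miR-379-5p (0.55) and miR-376b-5p (0.50, n = 29 for each), and each contributes to that sum. Leaving its own part out of the sum, miR-379-3p had a correlation of −0.28 with the other members.

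The comparison of TBI with sham asks which members differ in plasma 48 h after injury. miR-323-3p was higher after TBI. Among the UEF sham rats it was 22.1, 15.5, 18.4 and 10.3 CPM, and in the 8 UEF TBI rats 35.2 to 91.3 with a median of 48.5 CPM. At Monash it was 22.1, 17.1 and 21.1 CPM in sham and 46.3, 30.2, 33.3, 36.3 and 17.6 CPM in TBI rats. At UCLA it was 10.4, 14.3 and 18.1 CPM in sham rats and 18.9 to 37.8 with a median of 28.9 CPM in the 6 TBI rats. Sham and TBI rats did not overlap at UEF and UCLA, while at Monash the rat TBIE 2 lay within the sham range. Across sites, 17 of 19 TBI rats lay above the highest of the 10 sham rats. These levels rest on 24 to 62 counts in sham and 42 to 338 counts in TBI rats.

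With site in the model, miR-323-3p rose by a log2 fold change of 1.21 (SE 0.20, adjusted p = 6.3e-04 by edgeR), 2.31-fold, with 19 TBI and 10 sham rats. It was the only member past an adjusted p of 0.05: 1 of 66 members was higher (1.52%), where 5 of 751 miRNAs (0.666%) were higher in this comparison. No member was lower by edgeR, where 4 of 751 miRNAs (0.533%) were lower. At an unadjusted p below 0.05 there were 6 members, 5 higher and 1 lower (9.09%), against 83 of 751 miRNAs (11.1%), and DESeq2 called 1 member, miR-323-3p, where it called 25 miRNAs in all. The 5p arm of the same hairpin had a log2 fold change of 0.06 (SE 0.23, adjusted p = 0.961 by edgeR), at a level 5.69-fold above that of the 3p arm. In bulk plasma, a change in the RNA released by each cell and a change in the number of releasing cells cannot be told apart.

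The call of miR-323-3p held in 29 of 29 fits that each left out 1 rat, with log2 fold changes of 1.11 to 1.28. Without the 12 UEF rats it was 0.83 and was no longer called, nor was any of 745 miRNAs. In that fit miR-409b turned direction, at −0.02 against 0.47 with all rats, and without the 8 Monash rats both members were called, where 21 of 748 miRNAs were. With the split of 9 libraries in the model miR-323-3p had 1.19 and was the only member called, where 16 of 751 miRNAs were. In the 20 other libraries alone (13 TBI and 7 sham rats) 2 members were called by edgeR, miR-323-3p (1.40) and miR-409b (0.93), where 29 of 754 miRNAs were. In the 6 Monash libraries of the split, 3 TBIN rats against 3 sham rats, miR-323-3p had 0.82 and edgeR called 0 of 60 members and 0 of 721 miRNAs, with 4 members and 31 of 721 miRNAs at an unadjusted p below 0.05.

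miR-379-3p, the most abundant member, was 123, 236, 188 and 128.6 CPM in the UEF sham rats and 59.9 to 547 with a median of 248 CPM in the 8 UEF TBI rats. At Monash it was 324, 1022 and 542 CPM in sham and 2215, 498.7, 1326, 581 and 696 CPM in TBI rats. At UCLA it was 488, 224 and 307 CPM in sham rats and 140.4 to 747 with a median of 622 CPM in the 6 TBI rats. Sham and TBI rats overlapped at each site. The log2 fold change was 0.75 (SE 0.31, adjusted p = 0.293 by edgeR), which did not pass the threshold. With the split of 9 libraries in the model it was 0.66 (adjusted p = 0.336 by edgeR).

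None of the other 8 members among the 10 with the lowest p passed it. Their log2 fold changes were 0.47 for miR-409b, 0.62 for miR-409a-3p, 0.56 for miR-382-5p, 0.33 for miR-485-5p and 0.53 for miR-758-5p, and on the lower side −0.86 for miR-495, −0.48 for miR-154-5p and −0.30 for miR-541-5p, with edgeR adjusted p between 0.293 and 0.607. Single rats carried much of 2 of these values: miR-154-5p had −0.15 without UEF sham 2, at 62.7 CPM, and miR-758-5p 0.23 without Monash TBIN 2, at 85.9 CPM. Without the UEF rats miR-382-5p had 0.02, miR-409a-3p 0.14 and miR-485-5p 0.01. miR-495 was 11.9 ± 6.45 CPM (SD, n = 10) in sham and 6.89 ± 6.07 CPM (SD, n = 19) in TBI rats, and 8 of 19 TBI rats lay below the lowest sham rat. Over all 66 members the median log2 fold change was 0.05, against 0.03 over the 751 miRNAs, and 39 members (59.1%) lay above 0, against 53.1% of all. This median was 0.01 without UEF sham 3, and −0.04, −0.02 and 0.26 without the rats of UEF, Monash and UCLA in turn, so its sign is not fixed by these data. In 14 of the 31 hairpins both arms had the same sign. With all rats the cluster as a whole was thus near the background, and the arms of a hairpin did not in general share a direction.

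**Figure D3:**
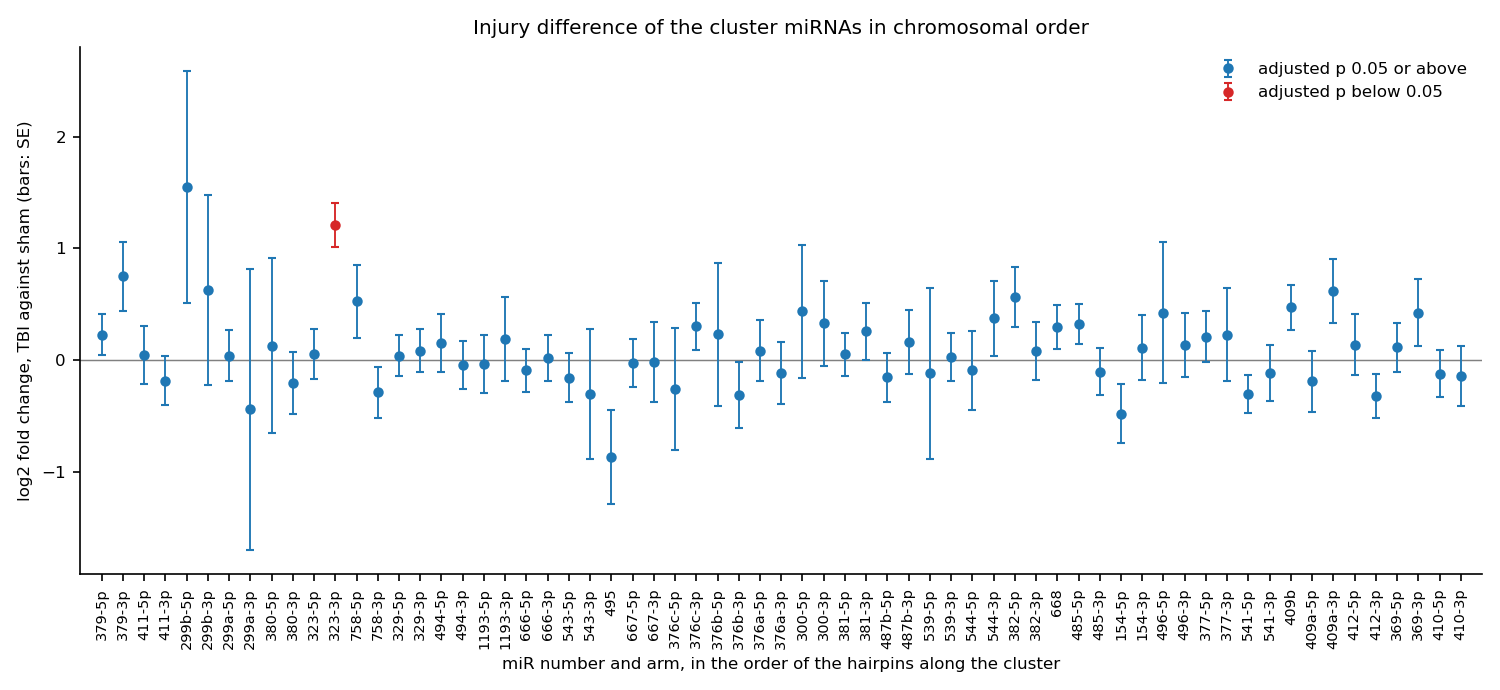
Log2 fold change of TBI against sham for 65 members in the order of their hairpins along the row, miR-379 first and miR-410 last (miR-679 had no sequence entry and is not placed). miR-323-3p at 1.21 is the only member past an adjusted p of 0.05, and its neighbours lie on both sides of 0.

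Within UEF, 3 members were higher after TBI, miR-323-3p, miR-409b and miR-382-5p. miR-409b is encoded opposite miR-409a, and its sequence is largely complementary to the 3p arm of miR-409a. It was 24.6, 21.6, 20.1 and 19.3 CPM in the sham rats and 41.0 to 75.4 with a median of 44.6 CPM in the 8 TBI rats. miR-382-5p was 53.2, 33.8, 28.7 and 70.7 CPM in the sham rats and 77.8 to 238 with a median of 107 CPM in the TBI rats. For all 3 members, each of the 8 TBI rats lay above each of the 4 sham rats.

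The log2 fold change at UEF was 1.73 (SE 0.29, adjusted p = 2.6e-04 by edgeR) for miR-323-3p, 1.21 (SE 0.27, adjusted p = 0.00482 by edgeR) for miR-409b and 1.44 (SE 0.39, adjusted p = 0.0282 by edgeR) for miR-382-5p. These 3 of 66 members (4.55%) compare with 10 of 751 miRNAs higher at UEF (1.33%). By edgeR, 0 members were lower, where 19 of 751 miRNAs (2.53%) were. At an unadjusted p below 0.05 there were 11 members in either direction (16.7%), against 119 of 751 miRNAs (15.8%), and DESeq2 called 4, miR-409a-3p being the other, where it called 49 miRNAs in all. The same 3 members were called with the split in the model, where 38 of 751 miRNAs were. The call of miR-382-5p was lost when UEF sham 2 (log2 fold change 1.36), UEF sham 3 (1.28) or UEF TBIE 2 (1.24) was left out, and when the UCLA rats were (1.48, adjusted p = 0.0505 by edgeR). Without UEF sham 1 there were 6 calls, with miR-409a-3p (1.58), miR-496-5p and miR-539-5p added, the last 2 against 3 sham rats at 0 counts, and 56 of 749 miRNAs were called.

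The next 7 members by p at UEF were not called with all rats. miR-409a-3p was 6.78, 7.32, 5.74 and 1.64 CPM in the sham rats and 9.00 to 23.8 with a median of 12.2 CPM in the TBI rats, without overlap (1.33, adjusted p = 0.0773 by edgeR). Besides the fit without UEF sham 1, it was called without UEF TBIN 2 (1.48), without Monash sham 2 (1.41) and without all Monash rats (adjusted p = 0.0431 by edgeR). miR-485-5p had 0.76 and miR-668 0.66 on the log2 scale, and without UEF sham 4 miR-668 was called (1.14, adjusted p = 0.0231 by edgeR). The rest were near 0 in sham. miR-496-5p had counts of 13, 0, 0 and 0 in the sham rats and 15 to 32 in the TBI rats, and miR-539-5p 11, 0, 0 and 0 and 16 to 35. miR-299b-5p was counted in 1 of the 4 sham rats. miR-299a-3p had 0 counts in all 4 sham rats and 72 in the 8 TBI rats, at least 8.91-fold higher against a floor of 3 counts over the sham group. With that member at its bound the median log2 fold change of the 66 members at UEF was 0.27, against 0.01 over all miRNAs, and 43 members (65.2%) lay above 0, against 51.3% of all.

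**Figure D4:**
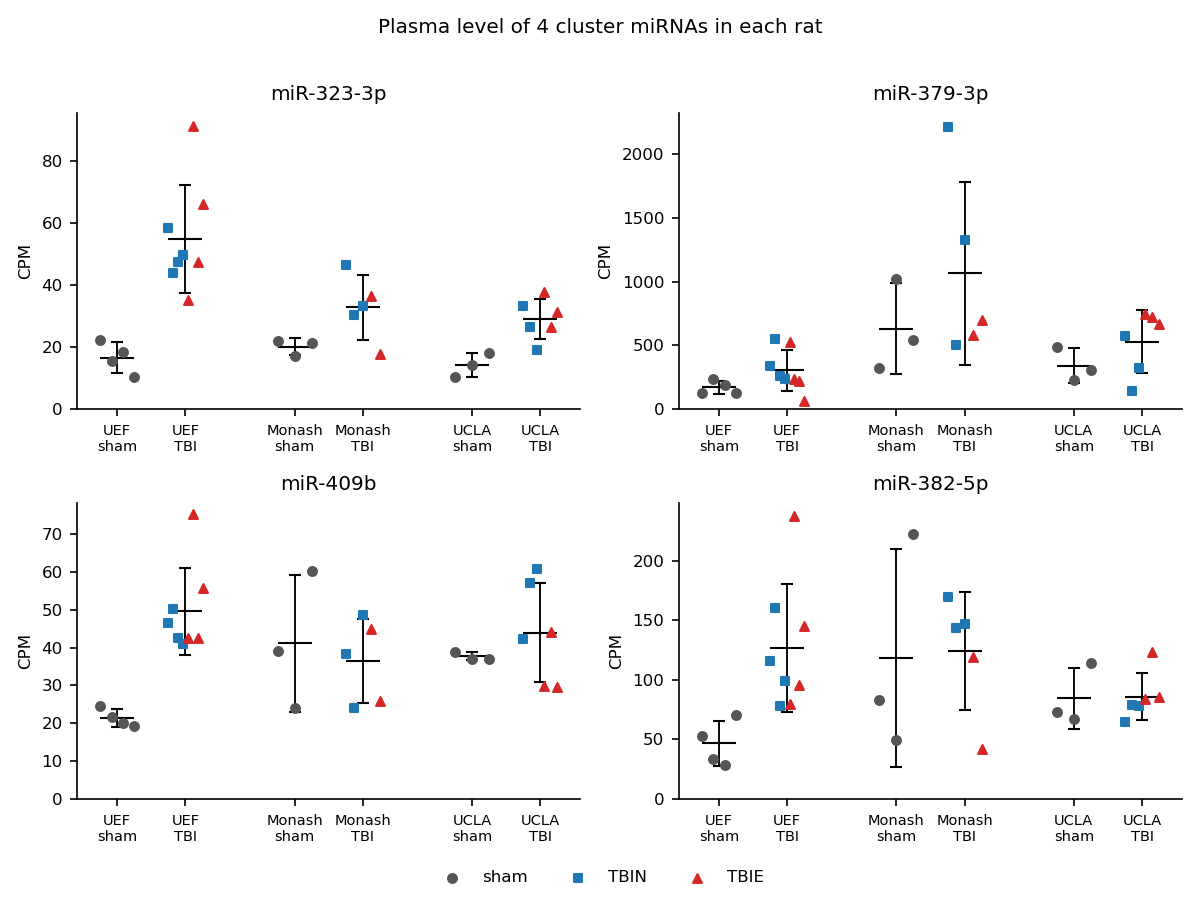
Level in CPM of miR-323-3p, miR-379-3p, miR-409b and miR-382-5p in each rat, by site and group, with bars for the mean and SD. At UEF the TBI rats lie above the sham rats for miR-323-3p, miR-409b and miR-382-5p, and at Monash sham and TBI rats overlap for all 4.

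At Monash no member was called by edgeR, as for all 751 miRNAs (0%), with 5 members (7.58%) and 56 of 751 miRNAs (7.46%) at an unadjusted p below 0.05 and 0 member calls by DESeq2, which called 5 miRNAs in all. The lowest p was that of miR-300-5p, with 2.76, 3.23 and 8.94 CPM in the sham and 0.437, 228, 4.03, 7.99 and 11.3 CPM in the TBI rats. A single rat, TBIN 2, set its log2 fold change of 3.41 (adjusted p = 0.287 by edgeR). Without that rat it was 0.29. The next was miR-758-5p at 1.57, where the same rat had 85.9 CPM and the other 4 TBI rats 9.15 to 16.6 CPM, and it was 0.33 without that rat. miR-329-3p (0.82), miR-369-3p (1.17) and miR-323-3p (0.70) followed. The median over the members was 0.08, against 0.05 over all miRNAs. By edgeR 0 of 66 members and 0 of 751 miRNAs were again called with the split in the model, with 7 members and 49 of 751 miRNAs at an unadjusted p below 0.05. miR-323-3p then had 0.83, and the median over the members turned to −0.04, against 0.01 over all miRNAs.

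At UCLA no member was called by edgeR, where 2 of 751 miRNAs were (0.266%), with 9 members (13.6%) and 85 of 751 miRNAs (11.3%) at an unadjusted p below 0.05 and 0 member calls by DESeq2, which called 7 miRNAs in all. Without UCLA sham 3 there was 1 call among the members, where 4 of 751 miRNAs were called. miR-323-3p had the lowest p, with a log2 fold change of 1.02 (SE 0.33, adjusted p = 0.235 by edgeR). miR-323-5p, its other arm, was 88.2, 153.6 and 85.5 CPM in the sham rats and 154.2 to 303 with a median of 209 CPM in the 6 TBI rats, without overlap (0.98, adjusted p = 0.343 by edgeR), whereas at UEF the same arm had −0.36. On the lower side were miR-412-3p (−0.85), miR-543-5p (−0.90), miR-154-5p (−0.99) and miR-485-3p (−0.73). UCLA sham 3 carried much of 3 of these, which were −0.49 for miR-412-3p, −0.20 for miR-154-5p and −0.22 for miR-485-3p without that rat. The median over the members was −0.19, against 0.02 over all miRNAs, with 24 members (36.4%) above 0 against 52.2% of all. 3 scarce members were at 0 in 1 of the groups: miR-299b-5p had 34 counts in TBI and 0 in sham (at least 5.78-fold higher), miR-380-5p 21 and 0 (at least 3.57-fold higher), and miR-299a-3p 0 in TBI and 18 in sham rats. Without UCLA TBIN 3, with 18 of the 34 counts, and UCLA TBIN 2, with 11 of the 21, the bounds were 3.28-fold and 2.04-fold. The median was the same with these at their bounds.

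Of the 6 UCLA TBI rats, the 3 TBIE rats lie on the other side of the split from the sham rats, and some of the UCLA values move with it. By edgeR 0 members were called with the split in the model, where 3 of 751 miRNAs were called, with 7 members and 50 of 751 miRNAs at an unadjusted p below 0.05. miR-323-3p then had 0.83 (adjusted p = 0.650 by edgeR) and miR-412-3p −0.63, and the median over the members was −0.08, against 0.06 over all miRNAs. The other 3 lower members named moved less, with −0.81 for miR-543-5p, −0.96 for miR-154-5p and −0.78 for miR-485-3p. In the 6 UCLA libraries outside the split alone, 3 TBIN rats against 3 sham rats, miR-323-3p had 0.81 and miR-543-5p −1.24. There edgeR called 0 of 63 members and 0 of 735 miRNAs, with 5 members and 75 of 735 miRNAs at an unadjusted p below 0.05.

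Whether the effect of TBI differed between sites was tested directly. By edgeR 0 of 66 members passed, where 8 of 751 miRNAs did (1.07%), with 11 members (16.7%) and 105 of 751 miRNAs (14.0%) at an unadjusted p below 0.05. DESeq2 called 1, miR-409b (adjusted p = 0.0399), where it called 17 miRNAs in all. miR-409b also had the lowest p of the members in edgeR (0.00418, adjusted p = 0.185 by edgeR), with log2 fold changes of 1.21 at UEF, −0.17 at Monash and 0.22 at UCLA. For miR-382-5p they were 1.44, 0.08 and 0.02 (adjusted p = 0.289 by edgeR), and for miR-323-3p 1.73, 0.70 and 1.02 (adjusted p = 0.370 by edgeR). The calls at UEF are thus not shown by edgeR to be particular to that site. With Monash sham 2 or UCLA sham 3 left out, edgeR called 1 member in this test, where 10 of 750 and 7 of 751 miRNAs were called. The values at Monash and UCLA cross the split of 9 libraries. With it in the model miR-382-5p had 1.44 at UEF, 0.27 at Monash and −0.31 at UCLA, so its direction at UCLA is not fixed by these data. miR-409b had 1.21, −0.28 and 0.36, and miR-323-3p 1.73, 0.83 and 0.83. In that fit edgeR called 0 of 66 members and 3 of 751 miRNAs for a difference of the effect between sites, with 11 members and 80 of 751 miRNAs at an unadjusted p below 0.05.

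**Figure D5:**
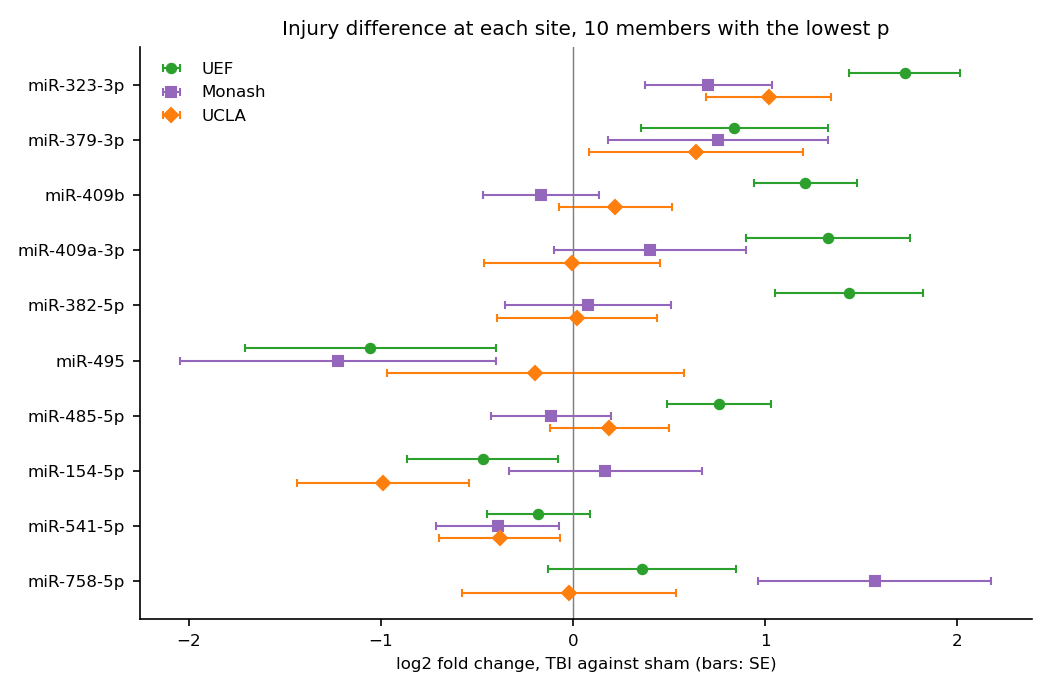
Log2 fold change of TBI against sham within each site, with its SE, for the 10 members with the lowest p over all sites. miR-323-3p lies above 0 at UEF (1.73), Monash (0.70) and UCLA (1.02), and miR-409b and miR-382-5p lie well above 0 at UEF alone, a difference between sites that edgeR did not call. The fit is the one without the split of 9 libraries.

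Sites were compared with the injury groups in the model. Over the 3 sites together, 9 of 66 members (13.6%) differed, where 111 of 751 miRNAs did (14.8%), so the members' share was near the background. The 9 were miR-379-3p, miR-379-5p, miR-539-3p, miR-381-3p, miR-485-5p, miR-541-5p, miR-666-5p, miR-380-5p and miR-323-3p. miR-379-3p had the lowest p of them. It was 59.9 to 547 with a median of 234 CPM at UEF (n = 12), 324 to 2215 with a median of 639 CPM at Monash (n = 8) and 140.4 to 747 with a median of 488 CPM at UCLA (n = 9). The 3 ranges overlapped, with the Monash rats highest by median. Several of the 9 calls were near the threshold. With 1 rat left out, miR-323-3p was called in 11 of 29 fits and miR-380-5p and miR-666-5p in 15 each. miR-485-5p and miR-541-5p were called in 27, miR-539-3p and miR-379-5p in 28, and miR-379-3p and miR-381-3p in 29. The call of miR-379-5p was lost without Monash sham 3, at 147 CPM (adjusted p = 0.116 by edgeR). With upper-quartile scaling 5 members were called, where 110 of 751 miRNAs were. With the split of 9 libraries in the model 4 of 66 members were called, miR-323-3p, miR-381-3p, miR-541-5p and miR-543-5p, where 74 of 751 miRNAs were, and miR-379-3p was not (adjusted p = 0.147 by edgeR).

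At Monash 6 members (9.09%) were higher than at UEF, where 42 of 751 miRNAs were (5.59%), and 2 members were lower, where 33 of 751 were (4.39%). The log2 fold change of Monash against UEF was 1.83 (SE 0.35, adjusted p = 0.00578 by edgeR) for miR-379-3p and 1.04 (SE 0.25, adjusted p = 0.0131 by edgeR) for miR-539-3p. miR-377-5p (0.88), miR-379-5p (0.70), miR-300-5p (2.18) and miR-543-5p (0.79) were the other 4 higher ones. The call of miR-300-5p rests on Monash TBIN 2 at 228 CPM. Without that rat its log2 fold change was 0.08, and DESeq2 did not call it with all rats. miR-377-5p (0.59), miR-666-5p (−0.72) and miR-667-3p (−1.13) were not called without that rat either. miR-666-5p (−0.81) and miR-667-3p (−1.31), an arm each of 2 hairpins, were lower. With all rats the site difference of miR-667-3p follows the split: the 2 Monash TBIE rats, at 96.5 and 93.8 CPM, lay at the level of UEF (68.9 to 126 with a median of 104 CPM). With the split in the model it had 0.19, and edgeR called 0 of 66 members and 0 of 751 miRNAs in this comparison, against 8 and 75 without it. For several of the 8 the lost call does not mean that the difference itself went. miR-543-5p was larger than before, at 1.11 (SE 0.32, adjusted p = 0.0943 by edgeR), miR-300-5p and miR-379-5p had 2.07 and 0.59, and miR-379-3p (1.19, adjusted p = 0.158 by edgeR) and miR-377-5p (0.61) were smaller. miR-539-3p had 0.55 and miR-666-5p −0.25. The SE grew for 7 of the 8, miR-667-3p being the other. With upper-quartile scaling 2 of the 8 calls were kept, miR-379-3p and miR-539-3p, where 46 of 751 miRNAs were called. This count rested on single rats: it ran from 2, without UEF TBIN 4, to 10, without Monash TBIE 1, and was 4 without UEF sham 3, where 41 of 750, 95 of 752 and 55 of 750 miRNAs were called.

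At UCLA 0 members were higher than at UEF by edgeR, where 31 of 751 miRNAs were (4.13%), and 2 members were lower, where 39 were (5.19%). At an unadjusted p below 0.05 there were 9 members in either direction (13.6%), against 151 of 751 miRNAs (20.1%), and DESeq2 called 4, miR-323-3p, miR-379-3p, miR-411-5p and miR-543-5p, where it called 88 miRNAs in all. The 2 lower members by edgeR were miR-381-3p, with a log2 fold change of −1.21 (SE 0.29, adjusted p = 0.00621 by edgeR), and miR-323-3p, with −0.71 (SE 0.21, adjusted p = 0.0279 by edgeR). The number of members called was 1 without UEF TBIE 2, UCLA TBIN 3 or UCLA TBIE 2, and 4 without UCLA TBIN 2. These are counts of members alone, so whether the whole table moved with them is not shown here. miR-381-3p was 10.6 to 58.9 with a median of 17.8 CPM at UEF and 5.61 to 14.7 with a median of 10.3 CPM at UCLA. DESeq2 gave miR-381-3p −1.18 but no adjusted p, so it is not among the 4. miR-539-3p, which has the same seed, had 0.36 in this comparison. With the split in the model both lower members were still called (miR-381-3p −1.13, miR-323-3p −0.82), and miR-543-5p was added, where 62 of 751 miRNAs were called.

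Between Monash and UCLA, 3 members were higher at Monash, where 23 of 751 miRNAs were (3.06%), and by edgeR 0 were lower, where 18 were (2.40%). At an unadjusted p below 0.05 there were 11 members in either direction (16.7%), against 148 of 751 miRNAs (19.7%), and DESeq2 called 4, where it called 59 miRNAs in all. The 3 were miR-485-5p (0.85), miR-541-5p (0.80) and miR-379-5p (0.78), with edgeR adjusted p of 0.0160, 0.0200 and 0.0302. miR-380-5p, called over the 3 sites together, was at 0 counts in 5 of 8 Monash and 5 of 9 UCLA rats, and at 0 to 31 counts in the 12 UEF rats. With the split in the model miR-541-5p alone of the members was called (0.99), where 36 of 751 miRNAs were. miR-379-5p and miR-485-5p then had 0.72 and 0.66. The site pairs share rats, so their calls are not independent of one another.

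Later epilepsy was compared within the injured rats, the outcome for which the study sought markers. By edgeR 0 of 66 members differed between TBIE and TBIN, as for all 751 miRNAs (0%), with 1 member (1.52%) and 18 of 751 miRNAs (2.40%) at an unadjusted p below 0.05 and 0 member calls by DESeq2. That member was miR-543-5p, at 93.0 ± 55.5 CPM (SD, n = 9) in TBIE and 63.6 ± 20.8 CPM (SD, n = 10) in TBIN rats, a log2 fold change of 0.55 (SE 0.25, adjusted p = 0.998 by edgeR). Monash TBIE 2, at 235 CPM, was its highest rat, and without it the log2 fold change was 0.30. The 5 TBIE rats of Monash and UCLA lie on the other side of the split from the TBIN rats of their site. That factor in the model again gave 0 member calls and 0 of 751 miRNAs by edgeR. miR-323-3p was 43.3 ± 22.6 CPM (SD, n = 9) in TBIE and 38.7 ± 12.2 CPM (SD, n = 10) in TBIN rats (0.14, SE 0.22, adjusted p = 0.998 by edgeR). The median over the members was −0.00, as over all miRNAs.

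The other miRNAs of the same imprinted domain, 21 tested miRNAs such as miR-127, miR-136 and miR-434, had 1 call after TBI. miR-434-3p, which is processed from a transcript antisense to the paternally expressed gene Rtl1, rose, at 117 ± 60.1 CPM in sham (SD, n = 10) and 273 ± 136.5 CPM in TBI rats (SD, n = 19) (1.19, SE 0.27, adjusted p = 0.0187 by edgeR). At UEF miR-434-3p was also the only call of the 21 (2.22, adjusted p = 2.6e-04 by edgeR). The median log2 fold change over the 21 with all sites was 0.19, and 17 lay above 0. Another 7 miRNAs of the table lie within the row of hairpins by RefSeq but have numbers outside the rule, miR-134-5p and miR-134-3p among them. These were picked after their values were seen. For TBI against sham over all sites edgeR called 0 of the 7, with 0 at an unadjusted p below 0.05 and 0 calls by DESeq2. At UEF 1 of the 7 and at Monash 2 had an unadjusted p below 0.05, where 119 and 56 of 751 miRNAs did. DESeq2 called 1 at Monash and 1 for the effect of TBI by site. Over the 3 sites together edgeR called 1 of the 7, where 111 of 751 miRNAs were called.

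Some marker miRNAs of tissues that release RNA into plasma also differed after TBI. Of 26 brain miRNAs 2 rose, miR-128-3p and miR-129-5p, with a list median of 0.21 and 20 above 0. miR-128-3p, the most abundant of them, was 4549 ± 1975 CPM in sham (SD, n = 10) and 8852 ± 3668 CPM in TBI rats (SD, n = 19) (0.99, SE 0.23, adjusted p = 0.0187 by edgeR). Their summed level was 3257 to 4249 with a median of 3959 CPM in UEF sham rats and 4891 to 11367 with a median of 8422 CPM in UEF TBI rats. The mean went from 6313 CPM in sham to 9632 CPM in TBI rats at Monash and from 6577 to 12514 CPM at UCLA, where edgeR called 0 of the 26 at either site, with 5 and 4 at an unadjusted p below 0.05, and DESeq2 0 and 1. At UEF edgeR called 3 of the 26 higher, miR-128-3p, miR-129-5p and miR-9a-5p, where 29 of 751 miRNAs were called in either direction. Most of the summed level is miR-128-3p, at 7368 of 8341 CPM on average. The part of brain RNA in the members' results was not tested.

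Of 5 red cell miRNAs edgeR called 0, with 1 at an unadjusted p below 0.05 and 1 call by DESeq2. Their median log2 fold change was 0.62, and all 5 lay above 0. By site it was 0.96 at UEF and 1.15 at UCLA, with 5 above 0 at each, but −0.37 at Monash, with 0 above 0. The most abundant, miR-486, was 86434 ± 42385 CPM in sham (SD, n = 10) and 151401 ± 56687 CPM in TBI rats (SD, n = 19) (0.77, SE 0.22, adjusted p = 0.0800 by edgeR), and at UEF it was called. The log2 ratio of miR-451-5p to miR-23a-3p, a marker of red cell lysis, was −2.86 ± 0.62 (SD, n = 10) in sham and −2.15 ± 0.61 (SD, n = 19) in TBI rats. By site the means of sham and TBI were −3.06 and −2.09 at UEF, −2.53 and −2.61 at Monash, and −2.92 and −1.84 at UCLA. With this ratio in the model miR-323-3p was still called, at 1.30 over all sites and 1.97 at UEF, and 5 members were called at UEF, miR-409a-3p and miR-485-3p being the added ones, where 21 of 751 miRNAs were called there.

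The call over all sites of the liver miRNA miR-122-5p rests on UEF sham 3. Both arms of miR-122 summed to 12342 to 1654030 with a median of 125499 CPM in the 10 sham rats and 5982 to 251910 with a median of 39779 CPM in the 19 TBI rats, and UEF sham 3 is the highest. miR-122-5p was lower after TBI with all rats (−1.65, SE 0.42, adjusted p = 0.0379 by edgeR), but not past the threshold without UEF sham 3 (−1.11, adjusted p = 0.177 by edgeR). At UEF both arms were called lower with that rat and without it (−2.92 and −1.96 for miR-122-5p). At Monash and UCLA edgeR called 0 of the 2, with 0 at an unadjusted p below 0.05 and 0 by DESeq2, and the sums had means of 109018 CPM in sham and 57702 CPM in TBI rats at Monash and 16307 CPM in sham and 15179 CPM in TBI rats at UCLA. With miR-122-5p and the other 2 largest miRNAs left out before scaling, 1 member was called over all sites and 3 at UEF, as with them, where 7 and 27 of 747 miRNAs were. White cell and platelet miRNAs (6 miRNAs, median 0.25, 6 above 0) had 0 calls by edgeR, with 2 at an unadjusted p below 0.05 and 0 by DESeq2. At Monash their median was −0.14, with 2 above 0, against 0.18 with 5 at UEF and 0.87 with 6 at UCLA. Their most abundant was miR-223-3p, at 36324 CPM on average. Muscle miRNAs (15 miRNAs, median 0.10, 9 above 0) had 0 calls by edgeR, 0 at an unadjusted p below 0.05 and 0 by DESeq2, with miR-133a-3p and miR-133b-3p, counted as 1 name, most abundant at 2841 CPM. Between the 3 sites edgeR called 111 of 751 miRNAs (14.8%). Among them were 7 of these 15 muscle miRNAs, 3 of the 6 of white cells and platelets, and 2 of the 2 of liver. It called 3 of 26 brain miRNAs, 0 of 5 of red cells and 0 of 21 others of the imprinted domain, where DESeq2 called 4, 0 and 2. The part of any of these in the members' results was not tested beyond the fits named here.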

How the data were processed

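The deposited table held raw read counts of 754 rat miRNAs in 29 plasma libraries. Per the authors, reads were trimmed with cutadapt, aligned to Rnor_6.0 with bowtie and counted against miRBase. The library kit carries molecular tags, and whether reads of 1 molecule were merged is not stated. Scarce miRNAs were removed by filterByExpr at a minimum of 10 counts. The rest were scaled by TMM and tested in edgeR 4.0.16 (R 4.3.3, limma 3.58.1) by a quasi-likelihood F test with site and group in the model, or with a group for each site for the effects within sites. Calls are at a Benjamini-Hochberg adjusted p of 0.05 over all 751 miRNAs tested. A prior count of 2 entered the log2 CPM values used for correlations, not the fold changes, which edgeR fitted at its default setting. Alternatives were DESeq2 1.42.0 and others of scaling, filter, model and rats. Members named with values are the 10 with the lowest p in a comparison, all those called, and the 5 most and 5 least abundant. The members and the marker lists were chosen with earlier results of these data known. The split of 9 libraries entered as an added factor in an alternative chosen after seeing the data. Replicate numbers in the labels were checked for pairing: over 103 pairs of rats with the same number the median correlation was −0.00, and 4 of 29 rats matched best with their own number, so rats were treated as unpaired. Other RNA classes were not used here.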

Additional observations from a re-analysis of the deposited data

Results flagged for a closer look

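A value is listed here when 1 rat lay far from the others of its group, judged by its gap to the nearest other rat over the range of the group. Of 126 groups tested over 18 values, 24 gave such a rat. Chance flags about 1 in 20 groups of independent, normally distributed values, and these groups share rats and hold skewed levels, so 24 is not read as an excess. No cause was tested for any of them.

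Monash TBIN 1 had a summed member level of 4369 CPM, where the other 9 TBIN rats had 2034 to 3133 CPM. UEF sham 3 had 47 members at 10 counts or more, where the other sham rats had 57 to 61. Monash sham 2 had 1022 CPM of miR-379-3p, where the other sham rats had 123 to 542 CPM.

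Among the 18 values tested, Monash TBIN 2 stood apart for 2 members, each among the Monash TBI rats and again among the TBIN rats of all sites. It had 228 CPM of miR-300-5p, where the other Monash TBI rats had 0.437 to 11.3 and the other TBIN rats no more than 8.67 CPM. It had 77.6 CPM of miR-377-5p, where those rats had 21.8 to 32.2 and 13.3 to 32.2 CPM. For the same 2 members UCLA sham 1 had 20.7 CPM of miR-300-5p (other sham rats 1.72 to 10.9), and UEF TBIE 4 had 45.0 CPM of miR-377-5p (other UEF TBI rats 13.3 to 26.2).

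miR-379-5p was 92.5 CPM in UEF TBIN 2 (other UEF TBI rats 39.9 to 62.1), 147 CPM in Monash sham 3 (other sham rats 28.9 to 60.2) and 89.6 CPM in Monash TBIE 2 (other TBIE rats 40.3 to 59.7). miR-380-5p, at few counts, was 1.46 CPM in Monash TBIN 3 (other Monash TBI rats 0 to 0.419), 4.48 CPM in UCLA TBIN 2 (other UCLA TBI rats 0 to 1.58) and 10.7 CPM in UEF TBIE 4 (other TBIE rats 0 to 3.10). miR-381-3p was 58.9 CPM in UEF TBIN 2, where the other TBIN rats had 10.3 to 31.9 CPM.

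Monash sham 3 was also high for miR-382-5p at 222 CPM (other sham rats 28.7 to 114) and for miR-409b at 60.2 CPM (19.3 to 39.2). UCLA TBIE 2 had 123.6 CPM of miR-382-5p (other UCLA TBI rats 64.8 to 85.7), and UEF TBIE 2 had 75.4 CPM of miR-409b (other UEF TBI rats 41.0 to 55.8). Monash TBIE 2 had 47.8 CPM of miR-541-5p, where the other Monash TBI rats had 17.9 to 26.4 and the other TBIE rats 10.2 to 26.4 CPM, and 235 CPM of miR-543-5p (other TBIE rats 45.9 to 102). Monash sham 1 had 47.5 CPM of miR-541-5p, where the other sham rats had 14.4 to 30.9 CPM.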

How the results depend on the processing

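Groups within a site hold 2 to 8 rats, plasma was taken at 1 time, and site cannot be told from handling. Near-identical and opposite-strand members may exchange reads. The alternatives for the effects within sites, for the site pairs, for the split of 9 libraries and for miR-122 were chosen after seeing the data. For TBI against sham 1 member was called under most alternatives. There were 0 without the UEF rats and 2 without the Monash rats, where 0 of 745 and 21 of 748 miRNAs were called. miR-409b turned to −0.0192 without the UEF rats. Over the 3 sites together there were 9 member calls, with calls over all miRNAs in brackets (111 of 751). There were 12 by DESeq2 (157 of 751), 5 with upper-quartile scaling (110 of 751), 2 without UEF (45 of 745) and 2 without Monash (70 of 748). A fit of the sham rats gave 3 (66 of 741), 2 of them not among the 9. A fit of the TBI rats gave 2 (40 of 750), and the split of 9 libraries in the model 4 (74 of 751). The counts that follow are of members alone, so whether the whole table moved with them is not shown here. Monash against UEF went from 8 to 2 with upper-quartile scaling, 3 with a replicate block and 0 with the split. UCLA against UEF went from 2 to 4 by DESeq2 and 1 with a replicate block, and Monash against UCLA from 3 to 1 with upper-quartile scaling and 1 with the split. The effect of TBI by site had 1 call by DESeq2. TBI against sham at UEF went from 3 to 5 with the hemolysis ratio in the model, 4 by DESeq2 or without Monash, and 2 without UCLA. Leaving out 1 rat at a time gave 1 to 1 calls for TBI against sham, 6 to 13 for the 3 sites together, 2 to 10 for Monash against UEF, 1 to 4 for UCLA against UEF, 2 to 4 for Monash against UCLA, 2 to 6 at UEF, 0 to 1 at UCLA, 0 to 1 for the effect by site, and 0 to 0 at Monash and for TBIE against TBIN. The median log2 fold change of members ran from 0.01 to 0.13 with 1 rat left out and from −0.04 without UEF to 0.26 without UCLA over the other alternatives. The cause was not tested for any of these changes.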

Other observations

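Outside the cluster 5 members share a seed with another miRNA of the table. These are miR-1193-3p with miR-370-5p, miR-329-3p with miR-362-3p, miR-376c-3p with miR-741-5p, miR-377-5p with miR-672-5p, and miR-410-3p with miR-344b-1-3p. Among the 7 miRNAs that lie in the row but outside the rule, miR-134-5p was the most abundant at 103 CPM on average over 29 rats, near the level of miR-382-5p.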
